A study of Mus musculus with 610 samples.

Results

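Blk, Syk and Egr2 are 3 of the 48 assays that were read by single-cell quantitative PCR in 610 thymus cells, in a study of Tgd17 progenitors, the precursors of the gamma delta T cells that produce interleukin 17. The 3 genes were taken by name, and every cell of the 4 sorted populations was used. All 3 assays were detected in every population, so none was lost to a filter. Blk (chromosome 14, 63372837 to 63417187), Syk (chromosome 13, 52582610 to 52648792) and Egr2 (chromosome 10, 67534469 to 67542188) are protein-coding genes, with coordinates of the RefSeq annotation of GRCm38.p6.

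Signalling by an antigen receptor starts when a Src family kinase phosphorylates the receptor's signalling chains. A kinase with tandem SH2 domains, Syk or its relative Zap70, then docks on these chains and passes the signal on. Blk is a Src family kinase best known from B cells, and mice without it make fewer Tgd17 cells. Egr2 is a zinc finger transcription factor whose gene is switched on by receptor signals. The assays Vg2-Jg1 and Vd4-Jd1 are named for joined segments of the gamma and delta receptor genes and were read in the same cells.

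Tcrd-/- DN1d cells came from mice of strain B6.129P2-Tcrd tm1Mom, which carry a targeted allele of the receptor delta gene, at postnatal days 7 to 10. They were sorted as live, TCRd-, Lin-, CD44+, CD25-, CD24+ and cKit-. The single run held 86 cells. Rag1-/- cKit- cells came from B6.129S7-Rag1 tm1Mom mice, which lack the recombinase needed to assemble antigen receptor genes, at postnatal days 0 to 2. They were live, TCRd-, Lin-, CD44+, CD25- and cKit-, with no CD24 gate, and gave 89, 52 and 82 cells in 3 runs. B6 DN2 cells came from C57BL/6J mice at postnatal days 7 to 10, were live, TCRd-, Lin-, CD44+, CD25+ and cKit+, and gave 78 cells in 1 run. B6 DN1d cells, from C57BL/6J mice of the same ages and with the gate of the Tcrd-/- cells, gave 72, 70 and 81 cells in 3 runs, and every comparison was made against them. A run is here the set of cells whose labels share 1 run token, and no label names the animals. Every run holds cells of a single group. Run-to-run spread was measured in the groups with 3 runs, and for the Tcrd-/- DN1d and B6 DN2 cells, with 1 run each, run and group cannot be told apart. In the Rag1-/- comparison genotype, age and the CD24 gate also cannot be told apart.

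A cell counted as detected for an assay when its threshold cycle (Ct) was below the ceiling of 24, and its level was 24 minus Ct, in PCR cycles, with undetected cells at 0. Tcrd-/- DN1d cells had 30.9 assays detected per cell, Rag1-/- cells 21.6 to 24.3 in the 3 runs and B6 DN2 cells 28.5, against 19.2 to 20.3 in the B6 DN1d runs. Gapdh, a housekeeping gene, was found in 610 of 610 cells. Its mean level was 15.1 in the Tcrd-/- run, 14.8 to 15.6 in the Rag1-/- runs and 15.2 in the DN2 run, against 14.2 to 15.1 in the B6 DN1d runs. Of the 7 myeloid and dendritic markers looked for, 4 were in the panel. Their summed level was 2.00 in Tcrd-/- DN1d cells, 0 to 0.419 in the Rag1-/- runs and 6.80 in DN2 cells, against 2.24 to 5.35 in the B6 DN1d runs, and Csf1r was at 0 in all but DN2 cells. The DN2 sum was mostly Spi1 (6.49), also a gene of early progenitors, while Gp49a (0.129 in DN2 cells against 1.08 to 2.18 in the B6 DN1d runs) and Csf2rb2 (0 against 0.94 to 2.01) were lower there. The summed level of 5 innate lymphoid markers was 28.1 in Tcrd-/- cells, 34 to 41.5 in the Rag1-/- runs and 28.4 in DN2 cells, against 18.8 to 21.3 in the B6 DN1d runs. That of the 2 mast cell and early progenitor markers in the panel was 17.5, 0.372 to 0.708 and 23.7 in the same order, against 5.33 to 7.08, and Cpa3 was at 0 in Rag1-/- cells. That of 6 T lineage markers was 45.7, 27.5 to 33.1 and 40.2, against 24.1 to 26.9, but its members did not all rise. By share of cells detected, limma called 4 higher and 0 lower in Tcrd-/- cells (adjusted p under 0.05). Of all 47 assays, 55.3% were called higher there and 0% lower. In Rag1-/- cells it called 2 higher and 1 lower, where 34% of all assays were higher and 25.5% lower. In DN2 cells it called 3 higher and 1 lower, where 44.7% of all assays were higher and 21.3% lower. Lef1 was the lower gene in both Rag1-/- and DN2 cells. Its level was 1.43 to 3.72 in the Rag1-/- runs and 0.627 in DN2 cells, against 3.90 to 5.16. Rag2 was found in 0 of 223 Rag1-/- and 1 of 223 B6 DN1d cells. Of the innate lymphoid markers, Id2 (3.70 against 3.19 to 4.16) and Zbtb16 (0.487 against 0.222 to 0.777) lay inside the B6 DN1d range in Tcrd-/- cells. Tox (10.4 against 4.76 to 6.54), Gata3 (12.1 against 9.41 to 10.2) and Nfil3 (1.43 against 0.562 to 0.845) lay above it there. Gata3 is in both the innate lymphoid and the T lineage list. The part of these differences in the results was not tested. None of the 7 B cell markers looked for was in the panel, so no B cell marker could be read beside Blk and Syk, although each sort took Lin- cells. The mean level over all cells combines the share of cells detected and the level in those cells, so both are also given apart.

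Among the 3 genes Blk had the widest range of shares over the 8 runs, between 5.77% and 89.5%. It was detected in 77 of 86 Tcrd-/- DN1d cells, or 89.5% (exact 95% interval 81.1 to 95.1%). Among B6 DN1d cells it was detected in 31 of 72, 29 of 70 and 19 of 81 cells, or 43.1%, 41.4% and 23.5%. The Tcrd-/- run thus stood above every B6 DN1d run. The difference of the logit share was 2.69 (95% interval 1.51 to 3.87, limma adjusted p = 0.000462), in a comparison in which 55.3% of the 47 assays tested were called higher and 0% lower. The 26 assays called higher were also the only ones with an unadjusted p under 0.05. Blk ranked 8 of 47 from the highest difference. The number of other assays per cell moved with it, and with that number as a covariate over cells the difference of Blk was -0.30 (limma adjusted p = 0.793). Assays detected per cell numbered 30.9 in the Tcrd-/- run, against 19.2 to 20.3 in the B6 DN1d runs. Here and below, this covariate counts assays that themselves differ between groups, so it cannot separate general detection from group.

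The level of Blk over all cells was 11.6 cycles in Tcrd-/- DN1d cells, against 4.77, 4.01 and 2.68 cycles in the B6 DN1d runs. The difference of 7.77 cycles (95% interval 5.31 to 10.2, limma adjusted p = 0.00276) ranked 3 of 47, with 61.7% of assays called higher. Among cells with Blk detected, the level was 12.9 ± 1.08 cycles (SD over 77 cells) in the Tcrd-/- run. It was 11.1, 9.68 and 11.4 cycles in the B6 DN1d runs, so that the Tcrd-/- run was again above each of them. That difference, 2.22 cycles (95% interval 0.35 to 4.08), did not pass the test (limma adjusted p = 0.0847 over the 33 assays with enough detected cells).

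In Rag1-/- cKit- cells Blk was rarer. It was detected in 11 of 89, 3 of 52 and 19 of 82 cells, or 12.4%, 5.77% and 23.2%, and its mean over runs was 13.8% ± 8.79, against 36% ± 10.9 in B6 DN1d cells (SD, n = 3 each). The highest Rag1-/- run and the lowest B6 DN1d run lay next to each other, at 23.2% and 23.5%. The logit difference was -1.32 (95% interval -2.16 to -0.49, limma adjusted p = 0.00655), in a comparison with 59.6% of assays called, 34% higher and 25.5% lower. The call ended without Rag1-/- run 1 (adjusted p = 0.0781) or run 2 (0.0776) and on an arcsine scale (0.0541). With the number of other assays per cell as a covariate the difference was -2.99 (adjusted p = 0.000151). The level over all cells was 1.12, 0.55 and 2.02 cycles in the Rag1-/- runs. The difference against B6 DN1d cells was -2.59 cycles (95% interval -4.33 to -0.85, limma adjusted p = 0.0254), with 21.3% of assays called lower. That call ended without B6 DN1d run 1 or 2 or Rag1-/- run 1 or 2 (highest adjusted p 0.0862), in detected cells only (-1.59, adjusted p = 0.120) and by the median over cells. The median could not keep the call, since at most 43.1% of cells of these runs had Blk and each median cell was undetected.

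In B6 DN2 cells Blk was detected in 10 of 78 cells, or 12.8% (exact 95% interval 6.32 to 22.3%), which lies inside the range of the Rag1-/- runs. The logit difference against B6 DN1d, -1.28 (95% interval -2.46 to -0.10), just missed the threshold (limma adjusted p = 0.0507), where 44.7% of assays were called higher and 21.3% lower, and it passed without B6 DN1d run 3 (-1.57, adjusted p = 0.00485). With the number of other assays as a covariate it was -4.87 (limma adjusted p = 3.4e-05). Assays detected per cell also differed here, at 28.5 in DN2 cells against 19.2 to 20.3 in the B6 DN1d runs. The level over all cells was 0.95 cycles in the DN2 run, a difference of -2.87 cycles that also missed the threshold (95% interval -5.33 to -0.41, limma adjusted p = 0.0508). The 10 DN2 cells with Blk held little of it, with 7.41 ± 1.29 cycles (SD over cells). The difference against detected B6 DN1d cells was -3.32 cycles (95% interval -5.18 to -1.45, limma adjusted p = 0.0199).

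**Figure D1:**
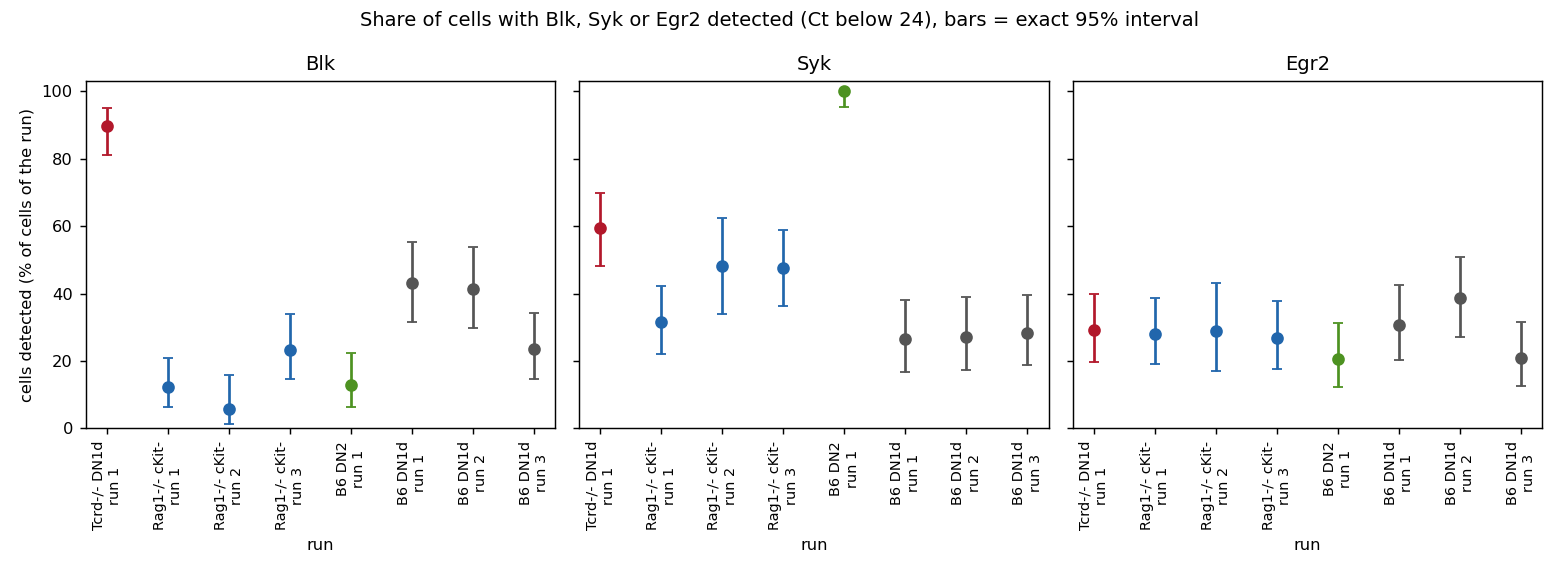
Share of cells (% of the cells of a run, vertical axis) with Blk, Syk or Egr2 detected in each of the 8 runs, with exact 95% binomial intervals as bars. Blk is highest in Tcrd-/- DN1d (89.5%), Syk in B6 DN2 (100%), and Egr2 lies between 20.5% and 38.6% in every run.

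Syk followed another order. It was detected in all 78 B6 DN2 cells (exact 95% interval 95.4 to 100%), while the B6 DN1d runs stood close together, at 26.4%, 27.1% and 28.4%. The logit difference was 6.02 (95% interval 5.01 to 7.03, limma adjusted p = 1.6e-09), rank 2 of 47. The level over all cells was 9.99 cycles in DN2 cells, against 2.22, 1.99 and 2.32 cycles in the B6 DN1d runs. This difference of 7.81 cycles also passed (95% interval 6.20 to 9.42, limma adjusted p = 0.000467), where 57.4% of assays were called and 40.4% were higher. Among detected cells the gap was smaller, with 9.99 ± 1.55 cycles in DN2 cells (SD over cells) against 8.43, 7.34 and 8.17 cycles in the B6 DN1d runs (difference 2.01, adjusted p = 0.0583).

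In Tcrd-/- DN1d cells Syk was detected in 51 of 86 cells, or 59.3% (exact 95% interval 48.2 to 69.8%), above each B6 DN1d run. The logit difference of 1.34 (95% interval 0.32 to 2.35, limma adjusted p = 0.0251) ranked 24 of 47 and equalled the median over all assays, 1.34. The call ended without B6 DN1d run 1 (adjusted p = 0.0696) or run 2 (0.0545), and with the number of other assays as a covariate (0.69, adjusted p = 0.365). The level over all cells, 5.13 cycles, was higher by 2.95 cycles (95% interval 1.33 to 4.56, limma adjusted p = 0.0137), again near the median of all assays, 3.06. Where Syk was detected, its level was 8.64 ± 1.44 cycles in the Tcrd-/- run (SD over 51 cells), and its difference against the B6 DN1d runs was 0.67 cycles (95% interval -1.02 to 2.35, adjusted p = 0.520).

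Rag1-/- cKit- cells had Syk detected in 28 of 89, 25 of 52 and 39 of 82 cells, or 31.5%, 48.1% and 47.6%. All 3 Rag1-/- runs lay above the 3 B6 DN1d runs. The logit difference, 0.65 (95% interval -0.07 to 1.37), did not pass (limma adjusted p = 0.113), and it did without Rag1-/- run 1 (0.88, adjusted p = 0.0172). The level over all cells, 2.92, 4.42 and 4.23 cycles in the Rag1-/- runs, was higher by 1.68 cycles (95% interval 0.54 to 2.82, limma adjusted p = 0.0254), in a comparison with 34% of assays called higher. That call held in 4 of 12 alternatives. It ended without any B6 DN1d run or Rag1-/- run 2 or 3 (highest adjusted p 0.0862), after Gapdh normalisation (adjusted p = 0.0605), in detected cells only (1.14, adjusted p = 0.207) and by the median over cells. The median could not keep the call, since at most 48.1% of cells of these runs had Syk and each median cell was undetected. By share, the order of Syk was B6 DN2, Tcrd-/- DN1d, Rag1-/- cKit- and then B6 DN1d. B6 DN2 and Tcrd-/- DN1d have 1 run each, so their places in that order rest on single runs. Between Rag1-/- cKit- and B6 DN1d, with 3 runs each, the runs did not overlap. This is not particular to Syk. The Rag1-/- and B6 DN1d runs were also apart for other assays, among them Id2, Il7r, Tcf7 and Gpr183. How many assays were apart in this way was not counted. In that comparison 59.6% of assays were called by share. The difference between Rag1-/- cKit- and B6 DN1d, the last neighbours in that order, was not past the threshold by share.

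Egr2 was detected in every run, in 20.5 to 38.6% of cells, and the groups overlapped. Cells with Egr2 made up 29.1% of the Tcrd-/- run, 28.1%, 28.8% and 26.8% of the Rag1-/- runs and 20.5% of the DN2 run, against 30.6%, 38.6% and 21% of the B6 DN1d runs. The Tcrd-/- run and the Rag1-/- runs lay inside the range of the B6 DN1d runs, and the DN2 run just below it. The logit differences were -0.02 for Tcrd-/- DN1d (95% interval -1.04 to 1.00, limma adjusted p = 0.963), -0.08 for Rag1-/- cKit- (-0.80 to 0.64, adjusted p = 0.864) and -0.47 for B6 DN2 (-1.49 to 0.55, adjusted p = 0.384). Levels over all cells were 1.46 cycles in the Tcrd-/- run, 1.09, 1.12 and 1.08 in the Rag1-/- runs and 1.00 in the DN2 run, against 1.20, 1.32 and 1.41 in the B6 DN1d runs. None of the 3 level differences passed, and their sizes ranged between -0.31 and 0.15 cycles (lowest limma adjusted p 0.155).

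Egr2 was also the assay read closest to the ceiling. Of the 169 cells with Egr2 detected, 102, or 60.4%, had a Ct of 20 or more, the highest share among the 47 assays detected in any cell, against 1.01% for Blk, 1.42% for Syk and 7.35% of all detected reactions. The mean level in detected cells was 5.03 ± 3.63 cycles in the Tcrd-/- run (SD over 25 cells) and 3.87, 3.87 and 4.04 cycles in the Rag1-/- runs. It was 4.87 cycles in the DN2 run, against 3.93, 3.42 and 6.70 cycles in the B6 DN1d runs, of which run 3 stood highest. With detection set at a Ct below 20, the share of cells with Egr2 was 11.6% in the Tcrd-/- run, 7.69 to 9.76% in the Rag1-/- runs and 8.97% in the DN2 run, against 11.1 to 16% in the B6 DN1d runs.

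**Figure D2:**
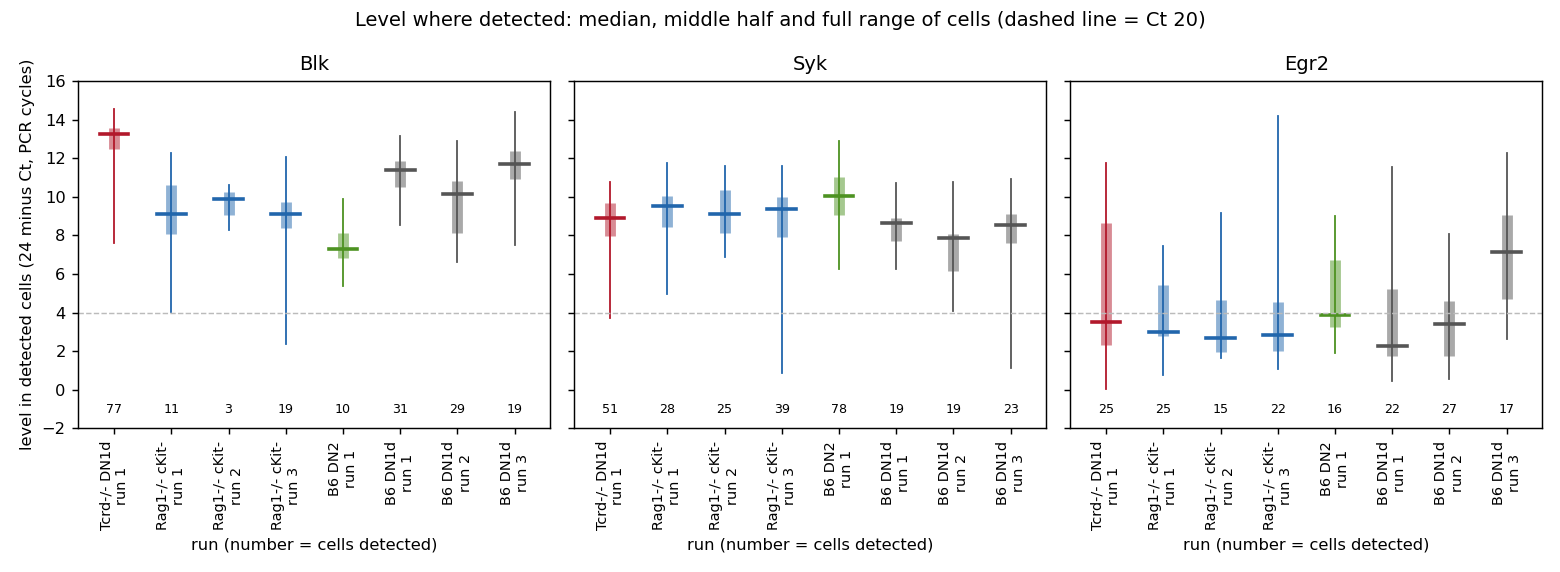
Level in detected cells (24 minus Ct, in PCR cycles, vertical axis) of Blk, Syk and Egr2 by run. The horizontal mark is the median, the thick bar the middle 50% of cells, the thin line the full range and the number the cells detected. Most Egr2 values lie under the dashed line at a Ct of 20, and Blk and Syk values lie above it in nearly all cells.

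The question whether the 2 kinases occur in the same cells was answered within runs, by the table of cells with both, either or neither. In the B6 DN1d runs, cells with both numbered 16, 12 and 6, cells with Blk only 15, 17 and 13, cells with Syk only 3, 7 and 17, and cells with neither 38, 34 and 45. Syk was therefore detected in 51.6%, 41.4% and 31.6% of cells with Blk, against 7.32%, 17.1% and 27.4% of cells without Blk. The direction was the same in the 3 runs and the gap was smallest in run 3. The mean natural log odds ratio was 1.29 (95% interval 0.28 to 2.30, from a spread pooled over assays and not that of this pair alone). It passed among the 40 assays set against Blk (limma adjusted p = 0.0226, 60% of them called, with 47.5% above 0), but not among the 40 set against Syk (adjusted p = 0.194). Without run 1 it was 0.71 (adjusted p = 0.355), and without run 2 it was 1.34 (adjusted p = 0.0998).

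In Rag1-/- cKit- cells the direction was the opposite. Of 33 Rag1-/- cells with Blk, 1 had Syk, against 91 of 190 cells without Blk. By run, Syk was detected in 0%, 0% and 5.26% of cells with Blk and in 35.9%, 51% and 60.3% of cells without Blk. Cells with Blk numbered 11, 3 and 19 in these runs, so run 2 rests on 3 cells, yet each run weighs the same in the mean. The 1 cell with both kinases, in run 3, had 32 other assays detected, against a mean of 25.7 in the 18 cells of that run with Blk only. The mean log odds ratio was -2.49 (95% interval -3.50 to -1.48, limma adjusted p = 2.4e-05, with 38.2% of 34 assays called and 11.8% below 0). The difference between Rag1-/- and B6 DN1d cells was tested directly and was -3.78 (95% interval -5.21 to -2.36, limma adjusted p = 6.2e-06), in a comparison with 45.5% of 33 assays called, 36.4% lower and 9.09% higher. In the fit of Syk the same comparison had 27.3% of 33 assays called, 24.2% lower and 3.03% higher. The Blk and Syk difference lay between -4.32 and -3.20 when single runs were left out. Rag1-/- cells with Syk had 23.4, 21.2 and 22.9 other assays detected in the 3 runs, against 23.3, 21 and 24.6 in those without Syk. Rag1-/- cells with Blk had more, at 25.8, 22.7 and 26.1, against 23.2, 21.4 and 23.4 in those without Blk. With cells split at the median of that number, the log odds ratio of Blk and Syk in Rag1-/- cells was -1.96.

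In the Tcrd-/- run 47 cells had both kinases, 30 Blk only, 4 Syk only and 5 neither. Syk was detected in 61% of cells with Blk and in 44.4% of the 9 cells without it. The log odds ratio, 0.64, differed from that of B6 DN1d cells by -0.65 (95% interval -2.66 to 1.37, limma adjusted p = 0.649). Of 37 assays set against Blk, 5.41% were called in that comparison, namely the cell cycle kinase Cdk6 and the T cell factor Tcf7, named after their values were seen. In DN2 cells, where every cell had Syk, the 10 cells with Blk had 10.47 ± 1.02 cycles of Syk and the 68 cells without Blk 9.92 ± 1.61 cycles (SD over cells).

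**Figure D3:**
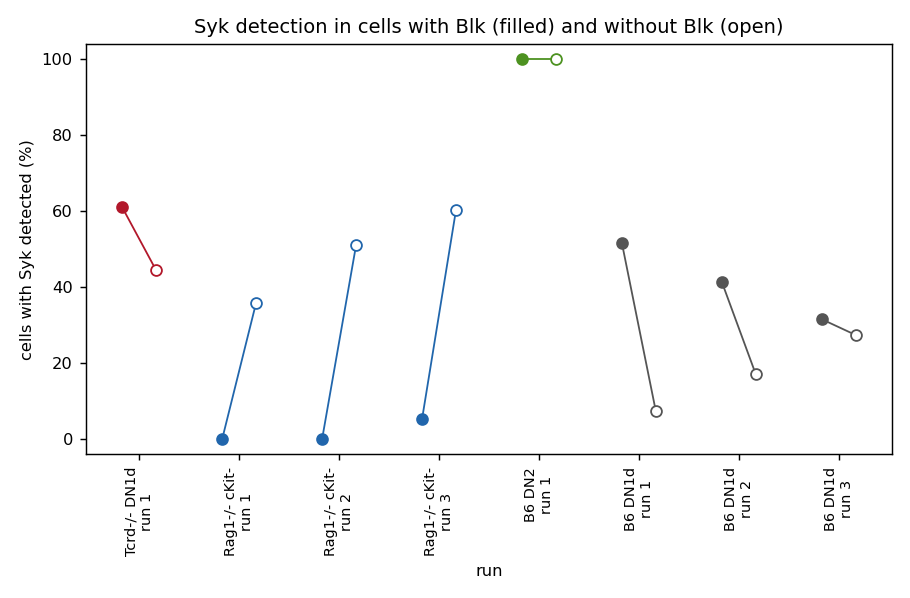
Share of cells with Syk detected (%, vertical axis) among cells with Blk (filled) and cells without Blk (open) of each run. The filled point is the lower in the 3 Rag1-/- runs, where it lies at 0 to 5.26%, and the higher in the Tcrd-/- run and the 3 B6 DN1d runs.

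The levels of both kinases were also compared within cells. In cells with Blk, its level was higher where Syk was also detected, at 13.1 ± 0.84 against 12.7 ± 1.33 cycles in the Tcrd-/- run (SD over 47 and 30 cells). For B6 DN1d the gap in the 3 runs was 1.06, 0.90 and 0.47 cycles in the same direction, each less than the SD over all cells with Blk of that run (1.26, 1.72 and 1.59 cycles). Across the cells with both, Pearson's r between the levels was 0.18 over 47 Tcrd-/- cells and 0.70 over 10 DN2 cells, against -0.06 over 16 cells of B6 DN1d run 1 and 0.53 over 12 cells of run 2. In cells with Syk, the level of Syk did not go 1 way with Blk. In B6 DN1d runs 1 and 2 it was higher where Blk was also detected, at 8.49 against 8.07 and 7.85 against 6.49 cycles. In run 3 it was lower there, at 7.28 ± 3.06 against 8.48 ± 1.25 cycles (SD over 6 and 17 cells). In the Tcrd-/- run it was 8.68 against 8.24 cycles, over 47 and 4 cells. These values are descriptions, since the cells of a run were processed together.

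Counted over the 3 genes, 14 of 86 Tcrd-/- DN1d cells, 0 of 223 Rag1-/- cKit- cells and 3 of 78 DN2 cells had all of them detected, against 11 of 223 B6 DN1d cells. A count of 0 allows up to 3 cells. None of them was detected in 5 Tcrd-/-, 75 Rag1-/- and 0 DN2 cells, against 79 B6 DN1d cells.

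Blk was tied to the receptor junction assays in B6 DN1d cells, where 60% of the 40 assays set against Blk were called, 47.5% above 0. Neither junction was among the 8 called assays with the largest log odds ratios there. The Tcrd-/- run, whose own tie was not tested, had values in the same direction. In the Tcrd-/- run Vg2-Jg1 was detected in 66 of 77 cells with Blk and in 1 of 9 cells without it. Those 9 cells differed in more than Blk. Tcrd-/- cells with Blk had 31 other assays detected, against 21.4 in the 9 without. Gp49a was detected in 1 of the 77 cells with Blk and in 7 of the 9 without, and Csf2rb2 in 1 and 5. The part of these differences in the tie was not tested. In the B6 DN1d runs it was detected in 25 of 31, 17 of 29 and 17 of 19 cells with Blk, or 80.6%, 58.6% and 89.5%. In cells without Blk the shares were 22%, 9.76% and 32.3%. Run 2 was read closer to the ceiling, since 8 of its 21 cells with Vg2-Jg1 had a Ct below 20, against 32 of 34 in run 1 and 35 of 37 in run 3. The mean log odds ratio in B6 DN1d cells was 2.58 (95% interval 1.57 to 3.58, limma adjusted p = 4.6e-06), with 2.46 to 2.67 in single runs. It was 3.49 in the Tcrd-/- run, a difference of 0.91 (95% interval -1.10 to 2.92, adjusted p = 0.508). The tie was not an identity, since 20 of 37 cells with Vg2-Jg1 in B6 DN1d run 3 lacked Blk. B6 DN1d cells with Blk had 24.9, 23.6 and 26 other assays detected, against 16, 16.4 and 16.8 in cells without Blk. With the cells split at the median of that number in each run, the log odds ratio was 1.67 (limma adjusted p = 0.000977). Between the levels of Blk and Vg2-Jg1 in cells with both, Pearson's r was 0.55 over 66 Tcrd-/- cells, and 0.17, 0.13 and 0.60 over 25, 17 and 17 cells of the B6 DN1d runs, as a description.

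The delta junction Vd4-Jd1 was rarer. It was detected in 43 of 77 Tcrd-/- cells with Blk and in 2 of 9 without. Of B6 DN1d cells, run by run, it was detected in 12.9%, 17.2% and 15.8% of cells with Blk, against 2.44%, 4.88% and 1.61% of cells without Blk (mean log odds ratio 1.64, 95% interval 0.63 to 2.64, limma adjusted p = 0.00305). These B6 DN1d shares rest on 12 cells with both and 4 with the junction only. In Rag1-/- cells neither junction was detected in any of 223 cells, with or without Blk. These mice lack the recombinase needed to assemble receptor genes, so that count was set by genotype and cannot show a tie to Blk. In DN2 cells Vg2-Jg1 was in 0 and Vd4-Jd1 in 1 of 78. Blk was thus detected in 33 Rag1-/- and 10 DN2 cells that had no junction read.

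Syk and Egr2 had no such tie that passed. Vg2-Jg1 was detected in 78.4% of Tcrd-/- cells with Syk and in 77.1% of those without. In the B6 DN1d runs the shares were 73.7%, 47.4% and 34.8% with Syk, against 37.7%, 23.5% and 50% without, so that run 3 went the other way (mean log odds ratio 0.64, 95% interval -0.41 to 1.68, limma adjusted p = 0.460). For Egr2, Vg2-Jg1 was detected in 88% of Tcrd-/- cells with Egr2 and in 73.8% without. The B6 DN1d shares were 40.9%, 33.3% and 64.7% with Egr2, against 50%, 27.9% and 40.6% without (mean log odds ratio 0.28, 95% interval -0.57 to 1.13, adjusted p = 0.865). With Vd4-Jd1 the mean log odds ratios in B6 DN1d cells were 0.53 for Syk (adjusted p = 0.531) and 0.40 for Egr2 (adjusted p = 0.865).

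**Figure D4:**
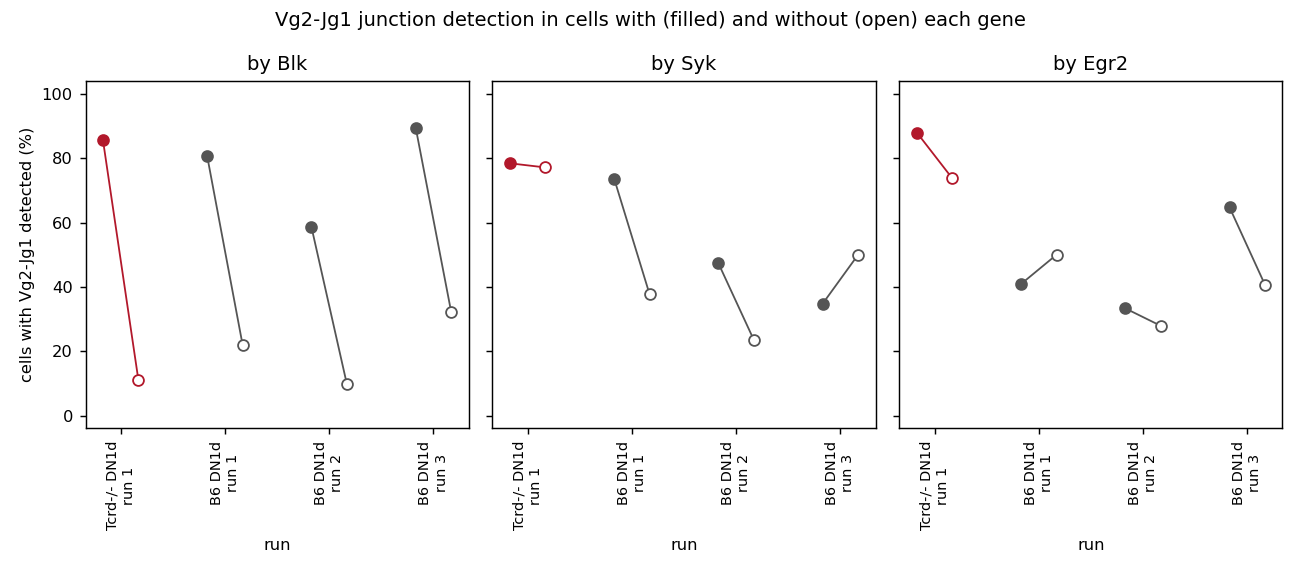
Share of cells with the Vg2-Jg1 junction detected (%, vertical axis) among cells with (filled) and without (open) Blk, Syk or Egr2, in the Tcrd-/- DN1d run and the 3 B6 DN1d runs. With Blk the filled point is at least 58.6% and the open point at most 32.3% in these 4 runs, and with Syk and Egr2 single runs go in opposite directions.

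Across the rest of the panel, detection with Blk in B6 DN1d cells was called for 24 of 40 assays, 19 above 0 and 5 below. Among the assays with the highest log odds ratios were Sox13 (5.52), an HMG box factor needed for Tgd17 cells, Myb (4.91), a progenitor factor, and Etv5 (4.17), an ETS factor. Further called were the granzyme gene Gzma (3.91), the scavenger receptor Cd163l1 (3.66), the interleukin 17 receptor chain Il17re (3.16) and the chemokine receptor Ccr9 (2.82). Sox13 was detected in every cell with Blk of B6 DN1d runs 1 and 2, and in 89.5% of those of run 3, against 12.2%, 4.88% and 14.5% of cells without Blk. Myb gave the same 100%, 100% and 89.5% with Blk, against 19.5%, 12.2% and 21% without. Below 0 were Bhlhe40 (-2.51), a transcriptional repressor gene induced by cytokine and receptor signals, the adhesion gene Cdh1 (-2.22), and the myeloid genes Gp49a (-2.48), Csf2rb2 (-2.37) and Spi1 (-1.37), all 5 named after their values were seen. The Spi1 value rests on runs 2 and 3. In B6 DN1d runs 1 and 2 none of the 31 and 29 cells with Blk had Gp49a or Csf2rb2, against 19.5% to 26.8% of the cells without Blk.

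With Syk, none of the 40 assays was called in B6 DN1d cells by limma, though 9 had an unadjusted p under 0.05. Without B6 DN1d run 3, 6 assays were called. Among the highest B6 DN1d values were those of Gzma (1.30), Blk, Cd163l1 (1.20) and Sox13 (1.20), each with an adjusted p of 0.194. In run 3 the cells with Syk and no Blk, 17 in number, had 15.6 other assays detected, against 27.7 in the 6 cells with both. In that run Spi1, an ETS factor of myeloid and early progenitor cells, was detected in 26.1% of cells with Syk and in 6.90% of those without, and Csf2rb2, a cytokine receptor chain, in 43.5% and 12.1%. These 2 genes were picked after their values were seen, and their part in the result was not tested.

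In Rag1-/- cKit- cells both kinases were tied to several of the same genes, with opposite signs. All 33 Rag1-/- cells with Blk had Il17re, Zbtb16 and Runx1, against 23.2%, 55.8% and 63.2% of the 190 cells without Blk. Run 2 held 3 of these 33 cells. The log odds ratios with Blk were 4.08 for Il17re (limma adjusted p = 1.4e-11), 2.74 for Zbtb16, the factor of innate-like T cells and innate lymphoid cells (3.6e-06), and 2.34 for the core T cell factor Runx1 (6.8e-05). Those with Sox13 (2.13), Ccr9 (2.05), Maf (1.54), the chemotactic receptor Gpr183 (1.52) and Bcl11b (1.42) were also called. Called below 0 were Tbx21 (-2.16), the factor of type 1 responses, Gzma (-1.83) and Cdh1 (-1.53). Tbx21 was still detected in most cells with Blk, at 28 of 33 (84.8%), against 185 of 190 without Blk (97.4%), so its value rests on the 10 cells that lacked it. The values of Sox13 and Tbx21 rest on runs 1 and 3, since run 2 had too few cells with Sox13 or without Tbx21. The calls of Maf, Gpr183 and Bcl11b are named after their values were seen, as is that of Cdh1 with Blk.

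With Syk in Rag1-/- cells, 9 of 34 assays, or 26.5%, were called, 8.82% above 0 and 17.6% below. Gzma (2.83, limma adjusted p = 3.9e-06), Bhlhe40 (1.99) and Cdh1 (1.85) were above 0, and Il17re (-3.05), Ccr9 (-2.31), Sox13 (-2.06) and Zbtb16 (-1.45) below. Gzma was detected in 85.7%, 80% and 74.4% of Rag1-/- cells with Syk, against 29.5%, 18.5% and 9.30% of those without. Il17re was detected in 7.14%, 0% and 10.3% of cells with Syk, against 41%, 55.6% and 72.1% of those without. The Cdh1 call ended without Rag1-/- run 3 (1.39, adjusted p = 0.156). The Sox13 value with Syk rests on runs 1 and 3, as does that with Blk. Leaving the kinases themselves out, 12 of 32 assays were called with Blk, 8 with Syk and 7 with both, and these 7 had opposite signs with Blk and with Syk. The 2 sets of log odds ratios come from the same cells and are not independent.

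**Figure D5:**
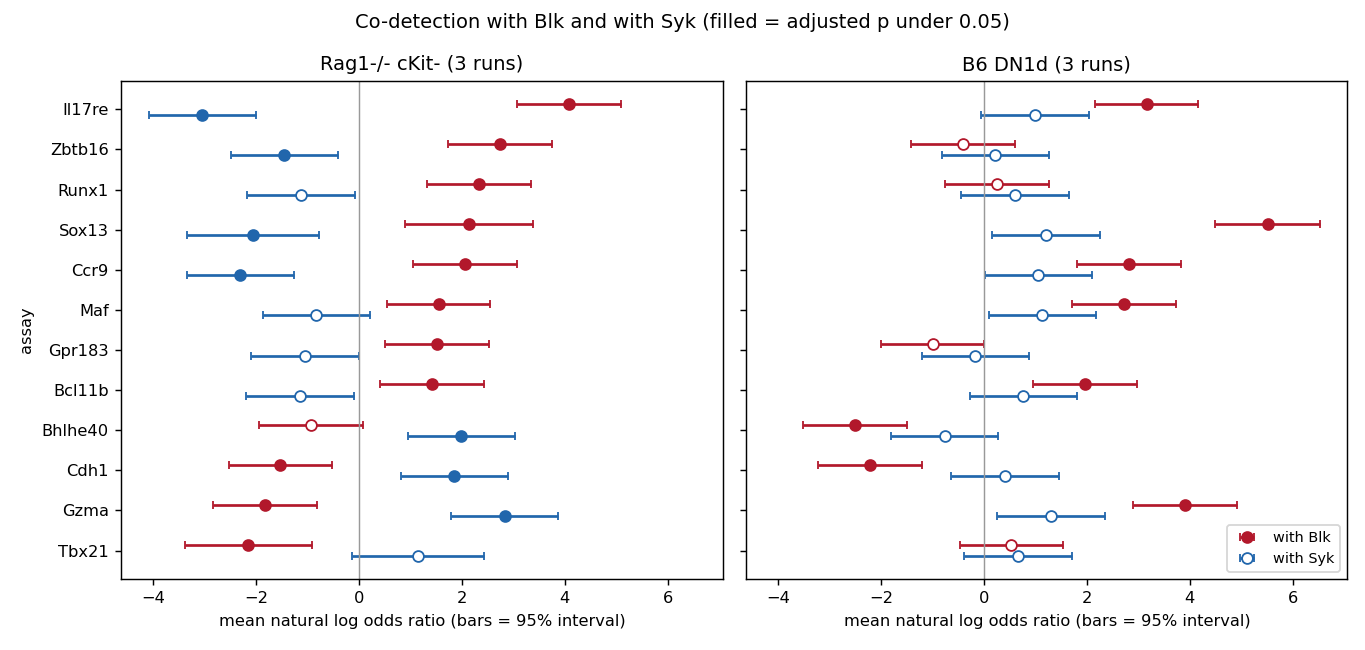
Co-detection, as the mean natural log odds ratio, with Blk (red) and with Syk (blue) for 12 assays in Rag1-/- cKit- cells (left) and B6 DN1d cells (right), with 95% intervals. Each group has 3 runs, but the Rag1-/- values of Sox13 and Tbx21 are over runs 1 and 3. In Rag1-/- cells Il17re, Sox13 and Ccr9 lie above 0 with Blk and below 0 with Syk, and Gzma and Cdh1 the other way round.

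Egr2 showed no partner past the threshold. In the Tcrd-/- run all 25 cells with Egr2 had Blk, as did 52 of 61 cells without Egr2. In the Rag1-/- runs Blk was detected in 20.0%, 6.67% and 22.7% of cells with Egr2 and in 9.38%, 5.41% and 23.3% of those without. In the B6 DN1d runs the shares were 27.3%, 40.7% and 29.4% with Egr2 and 50%, 41.9% and 21.9% without. The mean log odds ratio with Blk was 0.42 in Rag1-/- cells (95% interval -0.43 to 1.28, limma adjusted p = 0.810) and -0.18 in B6 DN1d cells (-1.03 to 0.67, adjusted p = 0.983). With Syk it was 0.16 in Rag1-/- cells (-0.69 to 1.01, adjusted p = 0.831) and -0.15 in B6 DN1d cells (-1.0 to 0.70, adjusted p = 0.984). Of 34 assays in Rag1-/- and 40 in B6 DN1d cells, limma called 0% with Egr2, and 3 in each had an unadjusted p under 0.05. The largest Egr2 difference between Tcrd-/- and B6 DN1d cells that involves another of the 3 genes was that of the log odds ratio with Blk, 2.40 (95% interval 0.70 to 4.11), which did not pass (limma adjusted p = 0.110, with 0% of 37 assays called and 6 at an unadjusted p under 0.05). In cells with Syk, its level was higher where Egr2 was also detected in each of the 8 runs, by 0.34 cycles in the Tcrd-/- run, 0.71, 0.79 and 1.79 in the Rag1-/- runs and 0.12 in the DN2 run, and by 0.68, 0.76 and 1.61 in the B6 DN1d runs. Those splits rest on 3 to 16 cells with Egr2 a run, were seen after the values were examined and were not tested.

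The assays most like each gene were named by 2 measures. Over the 8 runs, the logit share of Blk went most closely with Etv5 (Pearson's r 0.95), Lef1 (0.91), a TCF family factor, and Vd4-Jd1 (0.90). That of Syk went with Notch1 (0.98), the receptor of T lineage commitment, the E47 form of Tcf3 (0.97) and the replication gene Mcm2 (0.95), all of which were detected in nearly every DN2 cell. For Egr2 the values were lower, and among the highest were Il17re (0.58) and Cd163l1 (0.50). The 8 runs share 4 groups and differ in the number of assays detected per cell, so these values are descriptions. Across the cells of the 3 B6 DN1d runs, the highest mean phi coefficients of Blk included 0.83 with Sox13 and 0.76 with Myb. Among the highest for Syk were 0.27 with Blk and 0.26 with Cd163l1, but by run they were 0.50, 0.27 and 0.04 with Blk and 0.45, 0.35 and -0.0099 with Cd163l1, so that run 3 stood apart. For Egr2 the mean was 0.20 with Runx1 and ran between 0.18 and 0.21 in single runs. With Ccr9 (-0.06, 0.18 and 0.30) and Bhlhe40 (0.27, 0.14 and -0.03) the sign differed between runs.

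Of 14 antigen receptor signalling genes looked for, Blk and Syk were the 2 in the panel. By share, both were called higher in Tcrd-/- DN1d cells, where 55.3% of all assays were and where Syk lay at the median of all assays. In Rag1-/- cells 1 was lower and 1 not called, with 59.6% of all assays called. In DN2 cells 1 was higher and 1 not called, with 66% of all assays called. Of 11 genes of the response to receptor signals, 4 were in the panel. Beside Egr2 they were Etv5, Bhlhe40 and Zbtb16. Etv5 was detected in 95.3% of Tcrd-/-, 3.36% ± 1.31 of Rag1-/- and 7.69% of DN2 cells, against 33.6% ± 0.97 of B6 DN1d cells (SD over 3 runs), and each of the 3 differences was called. Bhlhe40 (59.7% ± 10.0 against 19.4% ± 5.64) and Zbtb16 (60.2% ± 12.2 against 8.30% ± 4.58) were called higher in Rag1-/- cells, and Zbtb16 also in DN2 cells (53.8%). The list's median logit difference was 0.09 in Tcrd-/-, 0.87 in Rag1-/- and 0.32 in DN2 cells, where the medians of all 47 assays were 1.34, 0.41 and 0.99. Of the 9 panel members of the Tgd17 list other than Blk, 7 were called higher in Tcrd-/- DN1d cells (median 2.17), where 55.3% of all assays were. In Rag1-/- cells 2 were called higher and 2 lower, where 34% of all assays were higher and 25.5% lower. In DN2 cells 3 were called higher and 3 lower, where 44.7% of all assays were higher and 21.3% lower. The list was chosen with earlier results of these data known, and nothing is read from its counts.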

How the data were processed

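Cells were captured on a Fluidigm C1, and cDNA was preamplified for 18 cycles and read by 30 cycles of EvaGreen quantitative PCR, per the labels' protocols. The authors deposited 1 Ct score per assay and cell, 29280 in all, of which 50.5% stood at exactly 24. How Ct was called and who set that ceiling are not given in the sources used here.

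Each run gave 1 value per assay: the empirical logit of the share detected (0.5 added), the mean of 24 minus Ct over all cells, or the natural log odds ratio of co-detection (0.5 added, left out where either assay was detected in fewer than 3, or undetected in fewer than 3, cells). limma 3.58.1 in R 4.3.3 fitted all 8 runs with a mean per group, 4 residual degrees of freedom and Benjamini-Hochberg adjustment over all assays at 0.05. For single-run groups the spread of the 3-run groups was assumed. Co-detection spread was in effect pooled over assays (142 total degrees of freedom). Those assays share the same cells and the same calls of Blk, Syk or Egr2 and are not independent, so co-detection p-values may be too small. P-values reflect differences between runs only, and such differences may be technical. Single shares have exact (Clopper-Pearson) intervals at 95%, and these cover counting error only. Comparisons share the B6 DN1d runs. Scripts used Python 3.11.15 and were tested on simulated data. Alternatives were Ct below 20, cells with 10 or more other assays, the number of other assays as covariate or stratum, an arcsine scale, median level, detected cells only, Gapdh normalisation, 0.1 added, the 2 groups alone and each run left out.

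Members, lists and tests were chosen with earlier results of these data known. Named were the 3 genes, the junctions, the list members in the panel, the 3 most alike assays by either measure and up to 8 called partners with the largest log odds ratio in B6 DN1d, a rule extended to Rag1-/- cells after their values were seen. 1 further gene that the rule names is not reported here, though counts include it.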

Additional observations from a re-analysis of the deposited data

Results flagged for a closer look

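The tie of Blk and Syk to other assays differed between Rag1-/- cKit- and B6 DN1d cells, by limma's test of the difference of the mean natural log odds ratio (Rag1-/- minus B6 DN1d, adjusted p under 0.05). With Blk, the difference was -5.74 for Gzma, -4.91 for Myb, -4.01 for Etv5, -3.78 for Syk, -3.38 for Sox13, -2.69 for Tbx21 and -2.60 for Cd163l1. It was 3.15 for Zbtb16 and 2.08 for Runx1. A lower log odds ratio is not a lower share: Cd163l1 was detected in 90.9% of Rag1-/- cells with Blk and 75.3% of those without, against 65.8% and 3.47% of B6 DN1d cells. With Syk, the difference was -4.04 for Il17re, -3.36 for Ccr9, -3.26 for Sox13 and 2.76 for Bhlhe40. Etv5 and Myb were rare in Rag1-/- cells, at 8 and 14 of 223. The Rag1-/- values of Etv5, Sox13 and Tbx21 rest on runs 1 and 3. Rag1-/- and B6 DN1d mice differ in genotype and age and the sorts in the CD24 gate, which cannot be told apart.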

How the results depend on the processing

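Of the values that answer a comparison, 347 kept their direction and side of the threshold under an alternative, 26 lost and 7 gained the call, 6 changed sign and 16 counts moved. With the number of other assays as a covariate, the share differences were -0.30 for Blk and 0.69 for Syk in Tcrd-/- DN1d, both without a call, and -4.87 for Blk in DN2. That number differed between groups, so this covariate cannot separate general detection from group. Over cells with 10 or more other assays Blk in DN2 gave -1.32 and passed, and on the arcsine scale Blk in Rag1-/- gave -0.27 and did not. In detected cells only, level differences were 2.22, -1.59 and -3.32 cycles for Blk and 0.67, 1.14 and 2.01 for Syk in Tcrd-/-, Rag1-/- and DN2 cells, and 0.19 for Egr2 in DN2. The level differences of Blk and Syk in Rag1-/- were 0 by the median over cells, which had to be so because most cells of each run lacked the gene. After Gapdh normalisation that of Syk in Rag1-/- was 1.5 and that of Egr2 in Tcrd-/- -0.0056. At a Ct below 20 the B6 DN1d log odds ratios were 0.092 for Blk with Egr2 and -0.051 for Egr2 with Vg2-Jg1. With 0.1 added that of Blk with Syk was 1.33 (adjusted p = 0.0785). Assays whose tie to Blk differed between Tcrd-/- and B6 DN1d numbered 2, and 1 with 0.1 added, 4 at a Ct below 20 and 10 with cells split by other assays. For Egr2 there were 0, and 1 with 0.1 added or cells split. Leaving out runs, share differences ran from -1.57 to -1.12 (Blk, DN2), -1.69 to -0.96 (Blk, Rag1-/-), -0.30 to 0.12 (Egr2, Rag1-/-), -0.25 to 0.18 (Egr2, Tcrd-/-), 0.53 to 0.88 (Syk, Rag1-/-) and 1.31 to 1.36 (Syk, Tcrd-/-). Level differences ran from -3.44 to -2.40 (Blk, DN2), -3.16 to -2.11 (Blk, Rag1-/-) and 1.40 to 2.14 (Syk, Rag1-/-). Log odds ratios in B6 DN1d ran from 0.71 to 1.83 (Blk with Syk), -0.49 to 0.19 (Blk with Egr2), -0.047 to 0.60 (Egr2 with Vg2-Jg1) and -0.62 to 0.10 (Syk with Egr2), and the Tcrd-/- minus B6 DN1d value of Syk with Egr2 from -0.29 to 0.42. Counts of called assays with Blk ran from 8 (without Rag1-/- run 3) to 14 in Rag1-/-, 7 (without Rag1-/- run 1) to 15 between Rag1-/- and B6 DN1d, and 0 (without B6 DN1d run 2 or Rag1-/- run 1) to 3 between Tcrd-/- and B6 DN1d. With Syk they ran from 0 to 6 in B6 DN1d and 5 to 9 between Rag1-/- and B6 DN1d, and with Egr2 from 0 to 1 in B6 DN1d and between Tcrd-/- and B6 DN1d. With 0.1 added, the Rag1-/- log odds ratios of Blk with Sox13 (2.19) and Tbx21 (-2.28) did not pass. The cause of these changes was not tested. Rare detection limits the log odds ratios, since 33 Rag1-/- cells had Blk. No paired analysis was possible because run numbers only name runs.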
